A study of Mus musculus with 2 samples.

Results

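Genes with a name made of Zfp and a number were examined in a list of genome regions (peaks) recovered with an antibody to Bcl3 from CGR8, a line of mouse embryonic stem cells. Names with trailing letters were kept and Zfp42 was left out. The rule used names and no measured value, and it gave 134 genes of 9097 named in the authors' annotation, listed for 117 of 1130 peaks. The chromatin immunoprecipitation and sequencing (ChIP-seq) experiment had 1 Bcl3 library and 1 input library, both from enzyme-digested nuclei and with no treatment or genotype named in the labels. The cells grew on 0.1% gelatin in medium with 15% knock-out serum replacement and 1000 U/ml of the self-renewal cytokine LIF. Since neither group had a replicate, no test between libraries was possible, the read depth is unknown, and the identity of the cells cannot be checked from a peak list. All positions are in mouse build mm9, and the log2 enrichment (the authors' greatest log2 fold change within a peak, with no denominator named) and the false discovery rate are the authors' values. The false discovery rate ran from 0.179, shared by 238 peaks, to 0.619.

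Bcl3 is a nuclear protein of the IκB family that acts on transcription with p50 and p52, DNA-binding subunits of NF-κB. Most Zfp genes encode proteins with arrays of C2H2 zinc fingers, each finger reading a few bases of DNA. Many of them also carry a KRAB domain, which binds the co-repressor Trim28 and through it the histone methyltransferase Setdb1, and in embryonic stem cells this machinery silences endogenous retroviruses. Such genes arose by tandem duplication and often lie side by side, so 1 peak can be listed for several of them. The authors' wider annotation names up to 22 genes per peak, many of them far from it, and their closest-transcript annotation names 1 transcript for 623 peaks. Listing therefore means only that the gene is a neighbour of the peak.

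Few of the 134 genes had a peak at or in the gene. The gene was the closest one to a peak for 8 of 134 members (5.97%, exact Clopper-Pearson 95% interval 2.61 to 11.4%), against 6.51% of all 9097 genes listed. These were Zfp385b, Zfp219, Zfp248, Zfp961, Zfp609, Zfp192, Zfp692 and Zfp3. In the wider annotation 4 members (2.99%, 0.819 to 7.47%) had a peak midpoint within 5 kb of the transcription start site, against 3.07% of all genes, and the same 4 lay within 1 kb, against 1.98%. A peak inside the gene was listed there for 5 members (3.73%, 1.22 to 8.49%), against 4.05%. Each of these shares lay near that of all genes. Neighbouring genes share peaks, so these intervals over genes cover counting error only.

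Zfp385b had the strongest of these peaks. It lay on chromosome 2 at 77654825 to 77655324, had a length of 500 bp and ranked 37 in the list with a log2 enrichment of 3.63, which is 12.4-fold. The peak reached from 452 bp upstream to 47 bp downstream of the start, with its summit 245 bp upstream, and its false discovery rate was 0.179. Zfp385b encodes a zinc finger protein of the Zfp385 family and spans 406184 bp here. No other start was near, since the next one, of BC003993, lay 129.2 kb away.

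Zfp609, whose product acts with the Integrator complex and the cohesin loader in neural progenitors of the mouse, had a peak on chromosome 9 at 65675350 to 65675749. Its log2 enrichment was 2.92 at a false discovery rate of 0.313. With 8.20, its −log10 Poisson p was the highest of the 8, whose other values ran from 5.05 to 6.0. The peak midpoint lay 180 bp upstream of the closest transcript and the summit 332 bp upstream. The wider annotation gave a start for the same RefSeq identifier that was 32416 bp from this peak, so Zfp609 was not among the 4 genes within 5 kb. With the starts of both annotations used, 6 members, now with Zfp609 and Zfp219, had a peak within 5 kb, an alternative added after the data were seen.

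Zfp192 (now Zkscan8), which encodes a protein with a SCAN and a KRAB domain, had its peak on chromosome 13 at 21622800 to 21623099, and the midpoint lay 30 bp downstream of the start. The wider annotation placed it in the 5' UTR, whereas the summit lay in intron 1 of the closest transcript, 170 bp downstream. The log2 enrichment was 2.79 and the false discovery rate 0.386. The same peak was listed for Zfp187 (now Zscan26) at 77.4 kb. Zfp192 was also listed for a stronger peak (3.58) at 184.2 kb, whose closest gene was the histone gene Hist1h2bl.

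On chromosome 11, Zfp692 and Zfp3 each had a low-ranked peak at the start. The Zfp692 peak at 58120575 to 58120699 had a log2 enrichment of 2.76 at a false discovery rate of 0.414. It ran from 5 to 129 bp downstream of the start, with its summit in the 5' UTR of exon 1. The Zfp3 peak at 70577925 to 70578099 had a log2 enrichment of 2.60 at a false discovery rate of 0.552. It reached from 23 bp upstream to 151 bp downstream, with its summit 16 bp upstream. These peaks ranked 806 and 1027 of 1130.

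**Figure D1:**
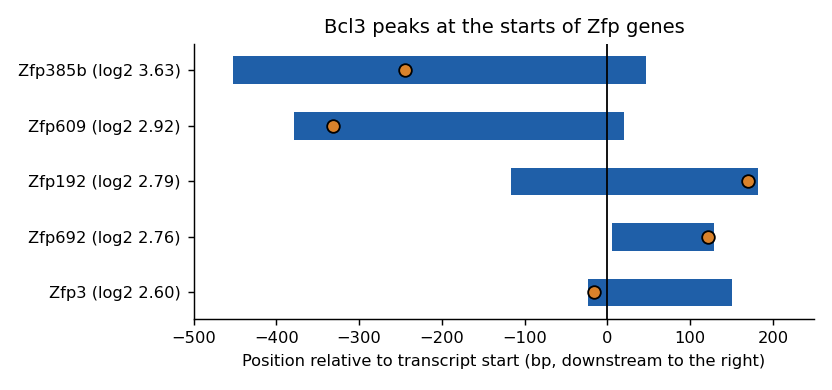
Bcl3 peaks (bars) and their summits (circles) at the starts of 5 Zfp genes, by position relative to the start of the closest transcript in bp, with the deposited log2 enrichment beside each gene. The Zfp385b and Zfp609 peaks lie mostly upstream, the Zfp192, Zfp692 and Zfp3 peaks mostly downstream, and 4 of the 5 bars cross the start.

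For the remaining 3 closest genes the peak lay farther inside the gene. Zfp219 encodes a Krüppel-type zinc finger protein that partners Sox9 in mouse cartilage. Its peak on chromosome 14 at 52634575 to 52634874 had a log2 enrichment of 3.40, ranked 152 and shared the lowest false discovery rate of 0.179. The midpoint lay 4662 bp downstream of the start of the closest transcript and 5683 bp downstream of that in the wider annotation, which placed it in the 5' UTR, while the summit fell in intron 1 of the closest transcript. That peak also lay 1815 bp upstream of the start of G630016D24Rik. The Zfp248 peak on chromosome 6 at 118395925 to 118396124 lay in intron 3, 9499 bp from the start (log2 enrichment 3.12, false discovery rate 0.241). The Zfp961 peak on chromosome 8 at 74483825 to 74483974 lay in intron 1, 8936 bp from the start (3.03, 0.267). Zfp961 appeared in the closest-transcript annotation only. Of the 8 peaks, 2 had the lowest false discovery rate.

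Promoters are shown for the 4 genes whose start in the wider annotation had a peak within 5 kb, because in mm9 the peaks lie over or beside these starts. The sequences are from RefSeq on GRCm38.p6, a later build than the peaks', and no position was carried from one build to the other. Each runs 5′ to 3′ on the gene's strand from 250 bases before the start to 50 from it on. Capitals mark matches to the κB motif, the site bound by NF-κB proteins, or to CCGGAAGT, a core of ETS factor sites, on either strand. For Zfp385b, with 4 starts in the table, the start nearest to the gene's 5′ end was taken, at chr2:77816767-77817066 on the minus strand. The others are Zfp192 at chr13:21531065-21531364 (minus), Zfp692 at chr11:58306819-58307118 (plus) and Zfp3 at chr11:70764197-70764496 (plus).
Zfp385b: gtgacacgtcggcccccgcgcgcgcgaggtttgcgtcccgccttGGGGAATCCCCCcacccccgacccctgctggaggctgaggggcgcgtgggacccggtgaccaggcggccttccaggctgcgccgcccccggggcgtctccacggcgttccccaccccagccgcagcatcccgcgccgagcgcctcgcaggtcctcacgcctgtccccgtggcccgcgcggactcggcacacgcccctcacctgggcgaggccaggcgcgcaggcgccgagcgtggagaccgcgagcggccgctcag
Zfp192: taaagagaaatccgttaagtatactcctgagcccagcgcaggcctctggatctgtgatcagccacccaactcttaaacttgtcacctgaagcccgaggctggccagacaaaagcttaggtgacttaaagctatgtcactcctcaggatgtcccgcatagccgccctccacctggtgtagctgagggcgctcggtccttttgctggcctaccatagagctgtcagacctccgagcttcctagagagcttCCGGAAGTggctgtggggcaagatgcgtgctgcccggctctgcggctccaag
Zfp692: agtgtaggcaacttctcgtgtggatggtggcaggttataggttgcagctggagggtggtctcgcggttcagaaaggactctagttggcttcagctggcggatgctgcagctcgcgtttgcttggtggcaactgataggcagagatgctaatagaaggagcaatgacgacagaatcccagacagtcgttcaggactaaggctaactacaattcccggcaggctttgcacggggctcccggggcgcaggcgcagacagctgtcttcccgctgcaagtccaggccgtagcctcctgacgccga
Zfp3: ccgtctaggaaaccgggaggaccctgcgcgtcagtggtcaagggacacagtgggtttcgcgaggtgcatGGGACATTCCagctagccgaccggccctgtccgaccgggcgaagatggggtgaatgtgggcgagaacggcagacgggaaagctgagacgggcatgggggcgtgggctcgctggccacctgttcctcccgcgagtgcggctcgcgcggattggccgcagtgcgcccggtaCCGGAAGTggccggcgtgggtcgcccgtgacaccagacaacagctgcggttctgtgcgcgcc

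A κB match was found in the Zfp385b and Zfp3 windows shown and not in the Zfp692 and Zfp192 windows. The windows at the other Zfp385b starts held no match. Of all 32851 promoter windows in the table, 8.46% hold a match. In Zfp385b, 5 overlapping matches on both strands covered the bases 206 to 195 before the start, among them GGGGAATCCC. The Zfp385b peak in mm9 reached 452 bp upstream of the start, past these matches. In Zfp3, GGGACATTCC began 181 bases before the start, whereas the peak in mm9 reached only 23 bp upstream. By these distances the Zfp3 match lay outside its peak, though no position was carried between builds. The ETS core CCGGAAGT was chosen after the sequences were read, and it occurred in Zfp3, 12 to 5 bases before the start, and in Zfp192, from 2 bases before the start, against 3.89% of all windows. The GC box GGGCGG occurred once each in Zfp385b and Zfp192 (35.7% of all windows) and CCAAT in Zfp3 (37.4%), on either strand, and these also were chosen afterwards. The GC content was 78.0% in Zfp385b, 68.3% in Zfp3, 57.7% in Zfp692 and 56.7% in Zfp192, against a median of 52.7% over all windows. These matches are descriptions of the letters, and the part of base composition in them was not tested.

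Most members lay far from their peaks. The distance from a start to the nearest peak listed for the gene had a median of 193.6 kb, with the middle 50% of genes between 85.8 and 429.1 kb, against a median of 233.0 kb over the 8982 genes of the wider annotation. The range ran from 30 bp for Zfp192 to 966.9 kb for Zfp37. The nearest peak was upstream of the start for 58 members, beyond the end of the gene for 70 and inside the gene for 6, counting Zfp961. Within 100 kb of the start 38 members had a peak in the wider annotation (28.4%, 20.9 to 36.8%), against 25.4% of all genes. At its peak, a member had a median order of 9.0 by distance among the genes listed, of which a peak has up to 22. This order and the counts of upstream and downstream peaks were not computed over all genes. No trait of the family can be read from them. The closest gene was a member for 8 of the 117 peaks, another gene for 79, and no gene for 30. A closest gene was thus named for 87 of the 117 peaks (74.4%, exact 95% interval 65.5 to 82.0%). The share was 55.1% of all 1130 peaks and 56.6% of the 1101 peaks that list any gene. What lies behind the higher share was not tested.

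The clustered genes were those listed for a peak with at least 3 Zfp genes, counted over both annotations together. The peak of Zfp961, Zfp617 and Zfp709 reached 3 only because Zfp961 was added from the closest-transcript annotation. There were 50 clustered genes at 12 peaks and 84 single ones. The nearest peak lay at a median of 209.7 kb for clustered genes and 174.1 kb for single ones. Within 5 kb of the start 4 of 84 single genes had a peak (4.76%, 1.31 to 11.7%) and 0 of 50 clustered genes did (exact interval up to 7.11%). The closest gene of a peak was a clustered gene in 2 cases of 50 (4.00%, 0.488 to 13.7%), Zfp248 and Zfp961, and a single one in 6 of 84 (7.14%, 2.67 to 14.9%). A peak has at most 1 closest gene and the 50 clustered genes share 12 peaks, so the definition itself holds down their shares. The intervals also treat genes of the same peak as independent. The values therefore cannot decide whether clustered and single genes differ, and this was not tested.

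**Figure D2:**
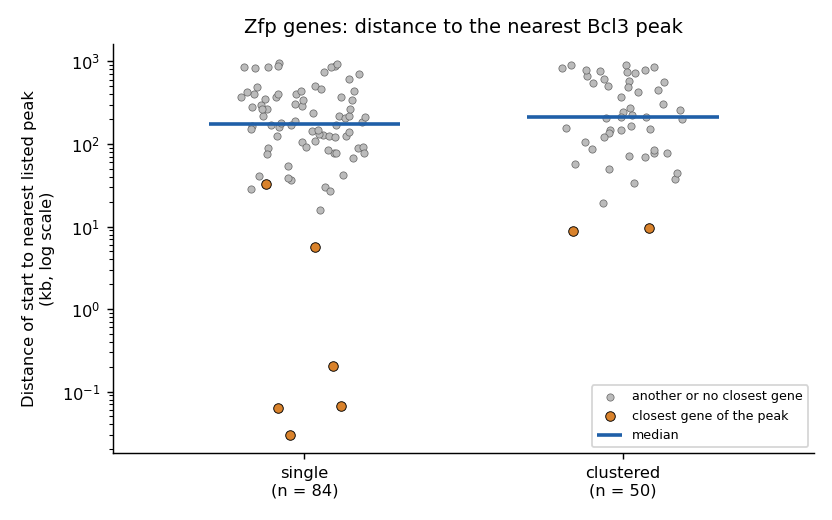
Distance in kb (log scale) from the start of each Zfp gene to the nearest Bcl3 peak listed for it, for 84 single and 50 clustered genes, with the median of each group as a line. Filled orange points are the 8 genes that are the closest gene of a peak, and Zfp609 stands at 32.4 kb because the wider annotation uses another start.

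The peak with the most Zfp genes lay on chromosome 17 at 22414250 to 22414624 and was listed for 9 of them, with a log2 enrichment of 2.77 at a false discovery rate of 0.402. They were Zfp758, Zfp820, Zfp760, Zfp52, Zfp53, Zfp51, Zfp54, Zfp677 and Zfp40. The nearest, Zfp758, had its start 84.0 kb away and the farthest, Zfp40, 915.8 kb. A further 6 of the 18 genes listed there carry a Zfp name in the later reference, including 6330416L07Rik (now Zfp944) at 83.9 kb. No transcript was listed as closest to the peak.

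Other large groups had the same form. A peak on chromosome 13 at 66924450 to 66924674 (log2 enrichment 2.87, false discovery rate 0.336) was listed for 6 genes, Zfp708, Zfp759, Zfp455, Zfp458, Zfp457 and Zfp595, at 257.9 to 508.9 kb, and it had no closest gene. A peak in Cntnap2 on chromosome 6 at 47008275 to 47008574 (3.32, 0.179) was listed for Zfp786, Zfp398, Zfp282, Zfp212 and Zfp777, the nearest 772.1 kb away. The last 3 of these were listed again, with Zfp775 and Zfp467, for a peak at 48543575 to 48543774 (2.81, 0.372). That peak lay 207 bp from the start of Repin1, which itself encodes a zinc finger protein, and 19.5 kb from Zfp775.

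The strongest peak with several members lay on chromosome 7 at 134637450 to 134637774 with a log2 enrichment of 3.72 at a false discovery rate of 0.179. It was listed for Zfp689 at 45.0 kb, Zfp688 at 72.1 kb, Zfp764 at 87.3 kb, Zfp629 at 120.3 kb and Zfp768 at 148.8 kb. Its closest gene was Fbrs and its nearest start that of Prr14 at 22.5 kb. In 9 of the 12 peaks every listed Zfp start was over 40 kb away and in 5 over 100 kb. The closest gene was another gene at 7 of the 12 and no gene at 3. Over all genes of the wider annotation the median distance was 233.0 kb, and 25.4% of all genes listed had a peak within 100 kb. A closest gene was named for 55.1% of all 1130 peaks. The counts over the 12 peaks were not computed for other groups of genes, so no trait of the clusters can be read from them.

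**Figure D3:**
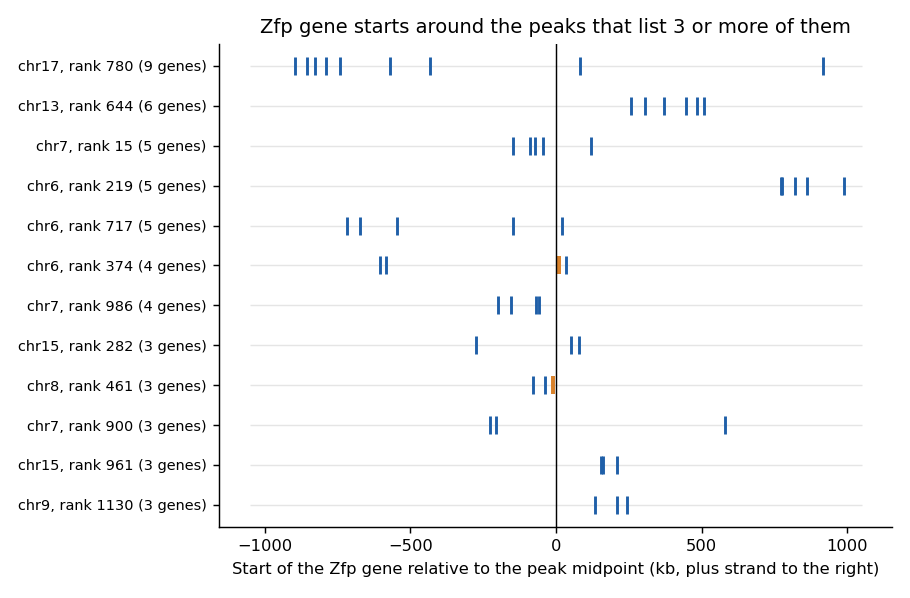
Starts of Zfp genes (ticks) relative to the midpoint of the 12 Bcl3 peaks that list 3 or more of them, in kb, with the peak's chromosome, rank and number of Zfp genes on the left. Orange ticks are the closest genes Zfp248 and Zfp961, and at most peaks the ticks stand off the centre line, up to 989.7 kb away.

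Another peak on chromosome 7, at 13619800 to 13619949, had 21 genes listed. Among them were Zfp446 at 56.7 kb, Zfp324 at 68.7 kb, Zfp128 at 153.3 kb, Zfp110 at 199.5 kb and the co-repressor gene Trim28 at 10.4 kb. The peak itself lay 218 bp from the start of Chmp2a, its closest gene, with a log2 enrichment of 2.63 at a false discovery rate of 0.509. Across a list of 30 genes of the Trim28 and Setdb1 co-repressor machinery and its partners, 5 were the closest gene of a peak (16.7%, exact 95% interval 5.64 to 34.7%), against 2.51% of 21900 protein-coding genes. The list was chosen with earlier results of these data known, so the higher share is a description and was not tested. Its genes were matched by name, and the 2.51% was counted by transcript accession. Hdac2, a histone deacetylase, had its peak 400 bp upstream of the start (2.50, false discovery rate 0.617), and Rbbp7, a histone-binding subunit of deacetylase complexes, 554 bp upstream (2.85, 0.347). Cbx1, a heterochromatin protein, had a peak 3738 bp downstream in the 5' UTR (3.08, 0.251). The peaks of Mphosph8, a subunit of the HUSH silencing complex (2.82, 0.372), and of the methyltransferase gene Ehmt1 (2.54, 0.592) lay in introns at 22.0 and 67.3 kb. As neighbours of any peak, 16 of the 30 were listed (53.3%), against 40.3% of protein-coding genes. None of the 5 closest genes had the lowest false discovery rate, which 148 of all 623 peaks with a closest gene shared. With so few genes, no difference can be read from this. Setdb1 was listed only at 317.7 kb.

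The fold enrichment of the members' peaks lay where that of all peaks did. The 117 peaks had a median log2 enrichment of 2.94 (2.48 to 4.02; order-statistic 95% interval of the median 2.88 to 3.05), against 2.93 over the 1130 peaks. Of the 117, 29 (24.8%, exact 95% interval 17.3 to 33.6%) had the lowest false discovery rate, against 21.1% of all peaks. The 8 peaks whose closest gene was a member had a median of 2.97 (2.60 to 3.63), against 2.94 for the 623 peaks with a closest gene. The 12 peaks with 3 or more members had a median of 2.84 (2.48 to 3.72) and the other 105 a median of 2.95 (2.51 to 4.02).

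**Figure D4:**
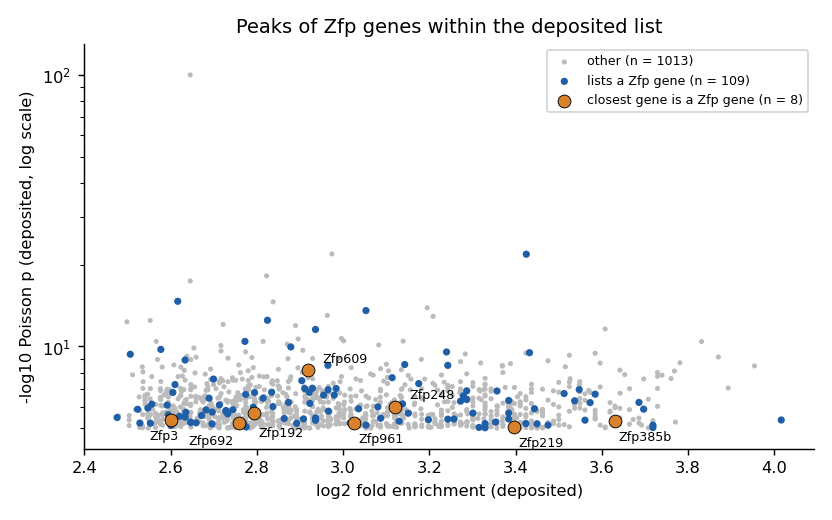
Deposited log2 enrichment of each peak against the deposited −log10 Poisson p (log scale), with the 109 peaks that only list a Zfp gene in blue and the 8 whose closest gene is a Zfp gene in orange. The Zfp peaks spread over the range of the other 1013, and Zfp385b and Zfp219 stand to the right at 3.63 and 3.40.

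Members with the strongest nearest peaks were, like most genes listed, mostly not the closest gene of that peak. The 10 members with the strongest nearest peak included the 5 clustered genes of chromosome 7 above, which share the same peak. Zfp335 (log2 enrichment 3.72) was listed at 108.9 kb for a peak whose closest gene was Acot8, and Zfp740 (3.70) at 38.6 kb for a peak 542 bp from the start of Rarg. Zfp346 (3.69) lay 216.9 kb and Zfp366 (3.63) 703.0 kb from its peak. Of these 10, only Zfp385b was the closest gene, against 5.97% of all members and 6.51% of all genes listed. The 5 genes that share a peak could supply at most 1 closest gene.

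Of the 134 members, 32 were listed for 2 or more peaks (23.9%, exact 95% interval 16.9 to 32.0%), against 33.5% of all genes listed. A single peak was listed for 102 members, 2 peaks for 23, 3 for 8 and 4 for Zfp518 alone (now Zfp518a), at 41.4 to 735.2 kb. Zfp652 was listed for the strongest peak of the whole list, 464.1 kb away, whose closest gene was Myst2 (4.02), and for 2 others. Zfp143, an activator that binds many promoters, was listed at 42.4, 364.9 and 536.4 kb, and its nearest peak (2.68) was closest to Ipo7. Zfp322a, a factor of pluripotent cells, was listed at 161.9, 186.1 and 186.7 kb for 3 peaks at the starts of the histone genes Hist1h4h and Hist1h1d. The nearest peak was 77.4 kb from Zfp691, 125.3 kb from Zfp287 and 185.6 kb from Zfp286, the last 2 sharing that peak. It was 337.0 kb from Zfp536 and 432.1 kb from Zfp334. None of these 9 was named as a closest gene. Few genes in the whole list were so named (6.51%), so a lack of them among 9 genes shows no trait.

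A member could be the nearest start to a peak in the wider annotation and still be remote. Of the 1101 peaks that list any gene, the nearest start in the wider annotation was that of a member at 15, of 14 genes. At 10 of these peaks it was over 20 kb away. How often the nearest start is so remote over all peaks was not computed, so this is not shown to be particular to the family. The closest-transcript annotation named another gene at 3 of these 10, 1700112E06Rik for Zfp503, Zfp961 for Zfp617 and Blnk for Zfp518, and for Zfp609 it placed a start at 180 bp. Zfp503 lay 987.9 kb from such a peak (log2 enrichment 3.29), Zfp369 465.1 kb (3.15), Zfp804a 263.6 kb (2.97) and Zfp462 187.7 kb (2.91). Zfp64 was the nearest start of 2 peaks, at 77.8 kb (2.62) and 142.4 kb (2.79), which had no closest transcript.

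A few further members were picked for what they are known for, with their values known, and stand for no group. Zfp809, which silences retroviral DNA in these cells, was listed at 486.2 kb (2.51), and Zfp445, which maintains genomic imprints, at 85.4 kb for a peak 239 bp from the start of Kif15 (2.67). Zfp296, a factor that aids reprogramming, was listed at 125.4 kb (2.70). Zfp36 encodes tristetraprolin, which binds AU-rich messenger RNA through CCCH fingers, and its peak lay 53.5 kb away (2.84). A locus without a nearby listed peak is not shown to lack Bcl3, since the depth is unknown.

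By gene ID, 133 of the 134 members matched the later reference, and 122 kept their name. Of the 11 others, 8 no longer have a Zfp name, among them Zfp313 (Rnf114), Zfp364 (Rnf115), Zfp179 (Rnf112), Zfp650 (Ubr3) and Zfp289 (Arfgap2), whose present names are those of RING finger, ubiquitin ligase or ArfGAP proteins. None of these 5 was the closest gene of a peak, whereas Zfp192 (now Zkscan8), also among the 8, was. Of all genes listed 6.51% were a closest gene, so no trait can be read from so few genes. Conversely, of 393 protein-coding genes with a Zfp name in the reference, 158 were listed (40.2%, exact 95% interval 35.3 to 45.2%), against 40.3% of all 21900, and 34 of the 158 stood under another name. As closest gene, 7 of the 393 were found (1.78%, 0.719 to 3.64%), against 2.51%.

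The share of the family that was listed ran from 20.8% on chromosome 8 to 82.4% on chromosome 6 among chromosomes with at least 10 Zfp genes, and unevenness was not tested. On chromosome 6, 14 of 17 Zfp genes were listed (82.4%, 56.6 to 96.2%), against 52.0% of all protein-coding genes there. On chromosome 7, which holds the most, 32 of 93 were listed (34.4%, 24.9 to 45.0%) against 40.9%. Chromosome 13 had 14 of 37 (37.8%, 22.5 to 55.2%) against 58.4%, and chromosome 17 had 18 of 45 (25.7 to 55.7%) against 38.6%. Chromosome 15 had 8 of 11 (72.7%, 39.0 to 94.0%) against 50.4%, and chromosome 9 had 12 of 20 (60.0%, 36.1 to 80.9%) against 46.6%. On chromosome 8, 5 of 24 were listed (20.8%, 7.13 to 42.2%) against 32.2%. The intervals on chromosomes 6 and 13 left out the share of all genes, and those on the other 5 chromosomes named here held it. Genes of a cluster are listed together, so these counts are not independent.

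**Figure D5:**
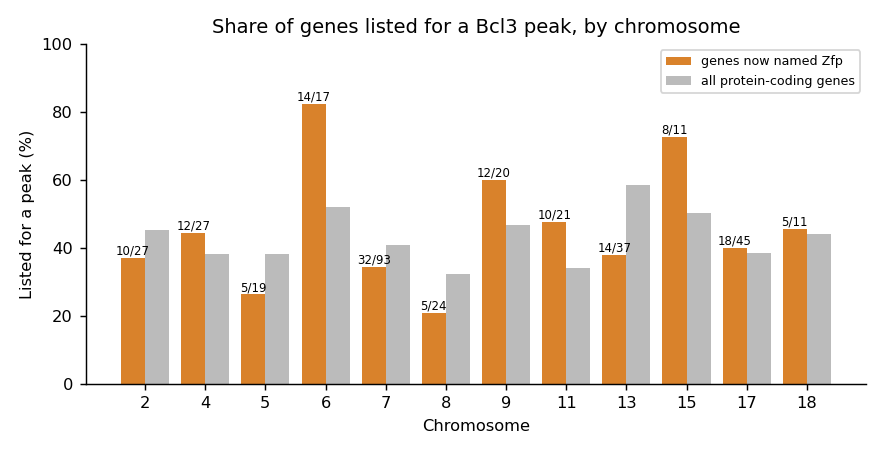
Share in percent of genes now named Zfp (orange, with counts) and of all protein-coding genes (grey) listed for a Bcl3 peak, on the chromosomes with at least 10 Zfp genes in the reference. The Zfp share is above the other on chromosomes such as 6 (82.4% against 52.0%) and below it on 13 (37.8% against 58.4%) and 8 (20.8% against 32.2%).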

How the data were processed

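The authors' deposited peaks of the Bcl3 library were used. The build, mm9, is from the submitters' processing notes. Input reads were not analysed here. No source used here names the aligner, peak caller, thresholds or use of the input. Per the file headers, the deposited log2 value is the greatest fold change within a peak, with no denominator named. The deposited false discovery rate is treated as a q-value, the deposited −log10 column holds the Poisson p-value of a peak, and the deposited T score was not used. Distances were taken from the authors' wider annotation, measured from the peak midpoint. The smallest per gene and peak was kept.

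The members were selected by name from both annotations (Python 3.11.15, pandas 2.3.3, scipy 1.17.1). Members and lists were chosen with earlier results of these data known. Shares have exact Clopper-Pearson 95% intervals, and no test was run because peaks and genes are not replicates. The genes named were every closest gene, every gene within 5 kb, the 5 peaks with the most members, the 10 strongest nearest peaks, the most peaks with ties, and the co-repressor genes found. Others were chosen after their values were seen. Gene IDs were matched to RefSeq on GRCm38.p6 for names, and 621 of 623 closest transcripts matched. For promoters, 103 members matched by gene ID. The planned count of zinc fingers per protein was not run. The selection and merging steps were tested on simulated data.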

Additional observations from a re-analysis of the deposited data

How the results depend on the processing

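With only the 238 peaks that share the lowest false discovery rate, 37 members were listed, 2 were a closest gene, 1 lay within 5 kb, 10 were clustered, the median log2 enrichment of peaks listing a member was 3.45, and 0 co-repressor genes were a closest gene. In the upper 565 peaks by Poisson score these counts were 81, 2, 0, 28 and, for the co-repressors, 3. In the upper 565 by fold enrichment they were 68, 4, 1, 20 and 1, and the median was 3.29. Fewer peaks lower these counts by construction. The clustered genes numbered 80 with at least 2 Zfp genes per peak, 27 with at least 5, and 12 with at least 3 within 200 kb. With the nearest start of the wider annotation, 14 members were a closest gene. The other 16 alternatives, including merging peaks within 1000 bp, moved no count by more than 1.5 times and no median beyond its interval. For the 8 closest-gene peaks that interval is their whole range, so it tests nothing. Their median of 2.97 became 3.51 on 2 peaks of the lowest false discovery rate, 3.02 on 2 by Poisson score and 3.26 on 4 by fold. Of the alternatives, 1 (the starts of both annotations) was chosen after seeing the data. No paired analysis was possible because each group has 1 library. The read depth is unknown, so sites below the list's threshold cannot be judged.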

Other observations

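Zinc finger genes outside the naming rule added 29 listed names (Zbtb, Zscan, Zkscan, Zfhx, Zfand, Znf and longer Zfp names), and 3 of these were the closest gene of a peak (10.3%, exact 95% interval 2.19 to 27.4%), against 6.51% of all genes listed. Zfhx2, a homeobox gene with zinc fingers, had a peak in the 5' UTR, 5810 bp downstream of the start, on chromosome 14 at 55704925 to 55705224, with a log2 enrichment of 3.39 at a false discovery rate of 0.179. Zbtb46, a BTB-domain factor of dendritic cells, had a peak 682 bp upstream of its start (2.76, 0.414). Zbtb34 had one 5119 bp upstream (2.71, 0.447). Both lie on chromosome 2.

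Of the 34 genes that gained a Zfp name after the annotation was made, 0 were the closest gene of a peak (exact 95% interval up to 10.3%), against 6.51% of all genes listed. The nearest to a peak was BC062127 (now Zfp781), 19.5 kb away (log2 enrichment 2.48, false discovery rate 0.619). BC050078 (now Zfp867) followed at 22.5 kb (3.18, 0.207).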
